A study of Mus musculus with 6 samples.

Results

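The 7 genes described here make or control proteins that bind metal ions: the metallothioneins Mt1, Mt2 and Mt3, the zinc-sensing transcription factor Mtf1, the ferritin subunits Fth1 and Ftl1, and the transferrin receptor Tfrc. They were chosen by name, and all 7 had a row among the 12151 genes of the deposited table. RNA was sequenced from cultured mouse glioma cells of 2 kinds, with 3 libraries each. The mNS cells, labelled as glioma stem-like cells, grew as neurospheres in serum-free DMEM/F12 with B-27, EGF, basic FGF and heparin, and were taken at passages 72, 77 and 85. GL261, a line from a chemically induced mouse glioma, grew in DMEM with fetal bovine serum, is labelled as differentiated glioma cells, and was taken at passages 17, 33 and 34 (the passage field of the third library says 33). Both media held penicillin, streptomycin, hepes, L-glutamine and β-mercaptoethanol, and no drug, gene change or added metal is given for either group. The strain of the mNS cells and the tumour they came from are not given in the labels. Each group is 1 cell line, and the labels do not say that its libraries came from separate cultures beyond their passage, and a p-value here reflects how these libraries vary, which may be technical. Cell line, medium and passage range differ together between the groups and cannot be told apart.

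Metallothioneins are small cysteine-rich proteins that hold zinc and copper in the cytosol. When zinc rises, MTF-1 binds metal response elements (MREs) in the promoters of Mt1 and Mt2 and switches them on, whereas Mt3 is a brain form that responds little to metals. Iron enters most cells as transferrin bound to the transferrin receptor, and spare iron is stored in ferritin, a shell of heavy (Fth1) and light (Ftl1) subunits of which the heavy one oxidises the iron. Iron regulatory proteins tie both ends together: in iron-poor cells they bind iron-responsive elements (IREs), hairpins that block translation when they lie in the 5′ UTR of ferritin mRNA and protect the mRNA when they lie in the 3′ UTR of Tfrc. Ferritin is therefore known to be set by iron largely at translation, which RNA levels do not show.

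The promoter windows of the 3 metallothionein genes are shown because MTF-1 is known to act on Mt1 and Mt2 through sites in their promoters. Each runs from 250 bases before to 50 bases after the RefSeq start (GRCm38.p6), 5′ to 3′ on the gene's strand, with MRE cores in capitals. The motifs searched were TGCGCNC and TGCACNC on both strands, so that a core on the other strand appears as its reverse complement.
Mt1, chr8:94178839-94179138, plus strand: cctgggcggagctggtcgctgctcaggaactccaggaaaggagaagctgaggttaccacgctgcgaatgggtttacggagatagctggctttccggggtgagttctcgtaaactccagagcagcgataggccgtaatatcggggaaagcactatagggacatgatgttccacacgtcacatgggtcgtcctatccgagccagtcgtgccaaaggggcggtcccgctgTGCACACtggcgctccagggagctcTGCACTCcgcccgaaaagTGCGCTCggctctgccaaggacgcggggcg
Mt2, chr8:94172368-94172667, plus strand: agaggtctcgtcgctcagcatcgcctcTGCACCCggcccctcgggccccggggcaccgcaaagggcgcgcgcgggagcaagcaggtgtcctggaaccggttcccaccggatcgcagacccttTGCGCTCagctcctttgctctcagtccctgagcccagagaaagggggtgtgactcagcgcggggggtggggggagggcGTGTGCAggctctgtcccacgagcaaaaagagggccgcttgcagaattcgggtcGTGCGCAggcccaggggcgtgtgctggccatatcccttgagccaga
Mt3, chr8:94152357-94152656, plus strand: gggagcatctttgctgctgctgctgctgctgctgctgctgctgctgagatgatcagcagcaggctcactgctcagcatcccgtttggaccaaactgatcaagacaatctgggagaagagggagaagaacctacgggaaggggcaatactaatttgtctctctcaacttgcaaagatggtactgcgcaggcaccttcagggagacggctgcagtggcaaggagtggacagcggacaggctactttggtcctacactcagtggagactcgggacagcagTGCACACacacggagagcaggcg
The Mt2 window held 4 cores, the Mt1 window 3 and the Mt3 window 1. Counted with the RefSeq start as 0, the cores began at -223, -128, -50 and 4 in Mt2, at -23, 2 and 20 in Mt1, and at 27 in Mt3. These positions and counts depend on the annotated start. Sequence beyond a window was not searched, so a window need not hold every core of its promoter. The GENCODE start of Mt2 (94172664) lies near the end of its window, downstream of all 4 cores. Of the 32851 promoter windows of the same table, 25.7% held at least 1 core, 1.97% at least 3 and 0.517% at least 4. The windows of Fth1, Ftl1 and Mtf1 held none of these letters, and 1 of the 2 windows of Tfrc held 2 cores that overlap on opposite strands at the palindrome TGCGCGCGCA. These matches are descriptions of sequence, and binding was not measured.

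Matches to an IRE pattern in the ferritin and transferrin receptor transcripts are shown because the known iron control of these 3 genes rests on IREs. Each is the 30-base stretch around a CAGTGN loop (in capitals) that follows a C and 5 bases able to pair with the 5 bases after the loop, found in the first-numbered GENCODE M21 transcript of the gene (GRCm38) and written 5′ to 3′ with T for U.
Fth1, 5′ UTR, chr19:9982732-9982761, plus strand: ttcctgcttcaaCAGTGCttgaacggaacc
Ftl1, 5′ UTR, chr7:45459778-45459807, minus strand: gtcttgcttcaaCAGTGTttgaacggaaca
Tfrc, 3′ UTR, chr16:32631219-32631248, plus strand: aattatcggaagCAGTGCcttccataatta
Tfrc, 3′ UTR, chr16:32631598-32631627, plus strand: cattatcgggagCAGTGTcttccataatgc
Tfrc, 3′ UTR, chr16:32631663-32631692, plus strand: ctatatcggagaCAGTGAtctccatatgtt
Tfrc, 3′ UTR, chr16:32631710-32631739, plus strand: aattatcgggaaCAGTGTttcccataattt
Fth1 and Ftl1 had 1 match each, in the 5′ UTR, and Tfrc had 4, all in the 3′ UTR. The pattern is strict and can miss known IREs, so these need not be all the IREs of a transcript. Of 21877 protein-coding genes, 294 (1.34%) had at least 1 match in a coding transcript, and Tfrc was the only gene with 4. The 3 metallothionein genes and Mtf1 had no match to this pattern.

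Between 12534422 and 14225175 reads per library fell in the listed genes. Levels are in CPM, read counts that the authors scaled for library size, and 1 read was worth 0.0708 to 0.0773 CPM. Differences are mNS minus GL261 in log2(CPM + 1), tested with limma over the 12006 genes that averaged 1 CPM or more, and a gene was called at a Benjamini-Hochberg adjusted p under 0.05. Of these genes 64.3% were called, with 32.2% higher and 32.1% lower in mNS. The evenness of that split depends on the scaling. With every column set to 1 common sum, 4460 genes were higher and 3197 lower. Quantile normalisation kept the split nearly even, with 3836 higher and 3874 lower. Levelling the median gene across libraries gave 3711 higher and 4040 lower. For 69.9% no mNS value fell inside the range of GL261 or the reverse. All 7 genes were tested. Mt3 and Fth1 were higher and Mtf1 was lower in mNS, so that 3 of 7 were called, a share below that of all genes. The other 4, Mt1, Mt2, Ftl1 and Tfrc, were not called. In bulk RNA, fewer cells that express a gene and less RNA per cell cannot be told apart.

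**Figure D1:**
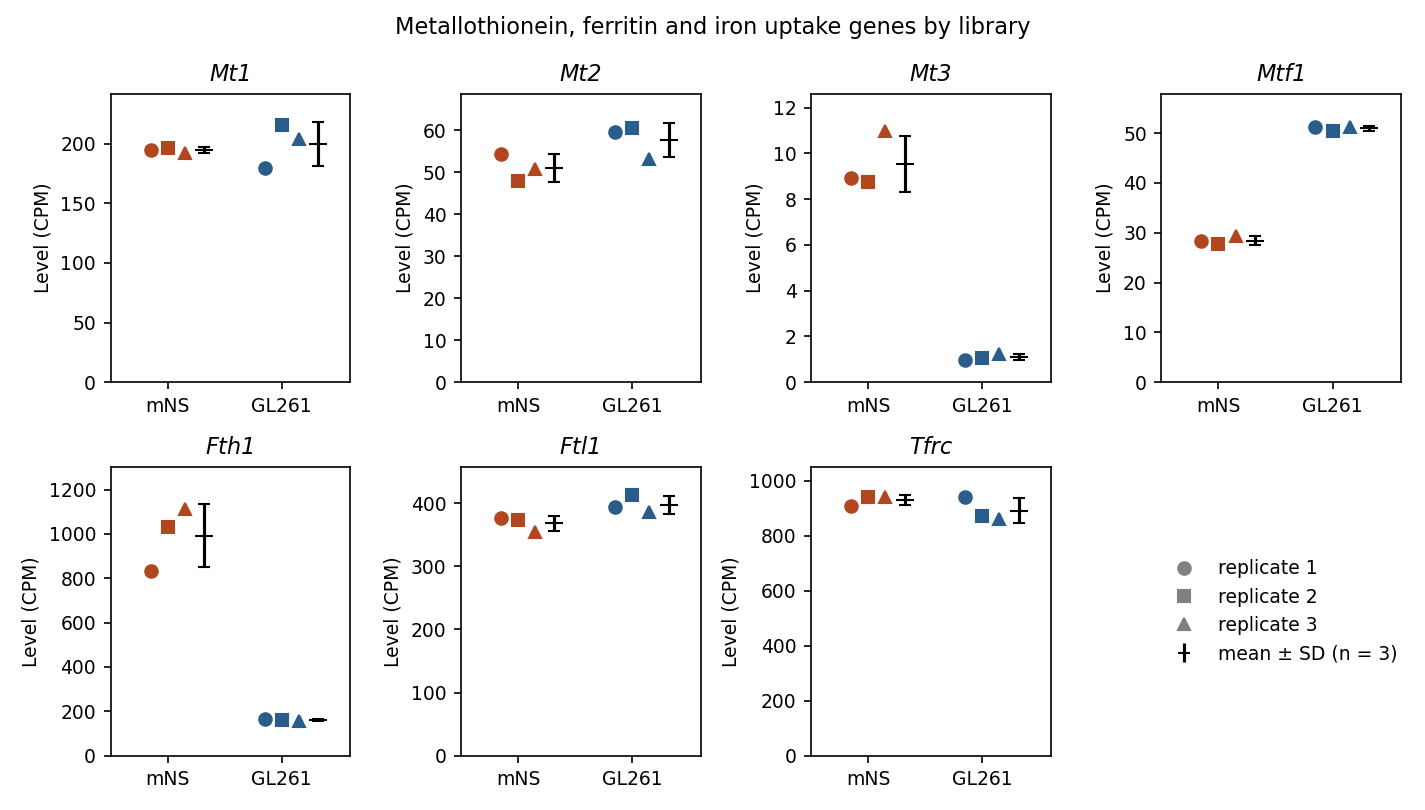
Level in CPM of each of the 7 genes in every library, mNS left and GL261 right, with points for replicates 1 to 3 and a bar for the mean ± SD (n = 3). Fth1 sits between 834 and 1112 CPM in mNS, against 157 to 166 CPM in GL261, whereas the points of Tfrc, Mt1 and Mt2 share a range between the groups.

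Mt1 and Mt2, the metallothioneins that most cells make, were close between the cell forms. Mt1 (chromosome 8, 94179082 to 94180327, plus strand, GRCm38) was measured at 195.0, 196.7 and 192.2 CPM in mNS, against 179.6, 215.7 and 203.9 CPM in GL261. The mNS values all lay inside the GL261 range. The difference was -0.03 ± 0.07 (SE), with a 95% interval of -0.20 to 0.14 and an adjusted p of 0.714 (limma), and its sign turned under 2 other scalings.

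Mt2 (chromosome 8, 94172664 to 94173568, plus strand) had 54.4, 47.9 and 50.6 CPM in mNS, against 59.6, 60.5 and 53.0 CPM in GL261. The groups overlapped through mNS replicate 1 and GL261 replicate 3. The difference was -0.17 ± 0.08 (SE; 95% interval -0.36 to 0.02; limma adjusted p = 0.0961). An antisense gene, Gm45774, overlaps Mt2, and the strand setting of the read counting is not stated.

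Mt3, the brain metallothionein, was the only one of the 3 that differed by the test. Its levels (chromosome 8, 94152607 to 94154146, plus strand) were 8.91, 8.74 and 10.97 CPM in mNS, against 0.969, 1.05 and 1.23 CPM in GL261. These values rest on 386 reads over the 3 mNS libraries and 44 over the 3 GL261 libraries, and the groups did not overlap. Mt3 rose 8.82-fold on the ratio of means, a log2 difference of 2.34 ± 0.14 (SE; 95% interval 2.01 to 2.66; limma adjusted p = 1.93e-06). Of all tested genes, 5.26% had a larger absolute difference. Without any 1 library the fold lay between 8.16 and 9.47.

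The 3 genes lie side by side on chromosome 8, and their summed level was close between the cell forms. Summed over the 3, metallothionein RNA came to between 253 and 258 CPM per library in mNS, against 240 to 277 CPM in GL261. Within a library, Mt1 had 3.59, 4.10 and 3.80 times the reads of Mt2 in mNS, against 3.02, 3.57 and 3.84 times in GL261. The ratio averaged 3.83 ± 0.259 in mNS and 3.48 ± 0.422 in GL261 (SD, n = 3 each), and the groups overlapped (exact two-sided permutation p = 0.4). The smallest p that 3 against 3 libraries allow is 0.1.

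Mtf1, the transcription factor that senses zinc and drives Mt1 and Mt2, fell in mNS. It (chromosome 4, 124802104 to 124849800, plus strand) had 28.3, 27.7 and 29.3 CPM in mNS, against 51.3, 50.5 and 51.3 CPM in GL261. The values were tight in both groups and did not overlap. GL261 held 1.79 times the mNS mean, a log2 difference of -0.82 ± 0.07 (SE; 95% interval -0.99 to -0.66; limma adjusted p = 1.65e-05). A protein-coding gene on the other strand, 1110065P20Rik, overlaps Mtf1. It averaged 16.8 ± 1.35 CPM in mNS and 19.2 ± 1.11 CPM in GL261 (SD, n = 3 each) and was not called (adjusted p = 0.142, limma).

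**Figure D2:**
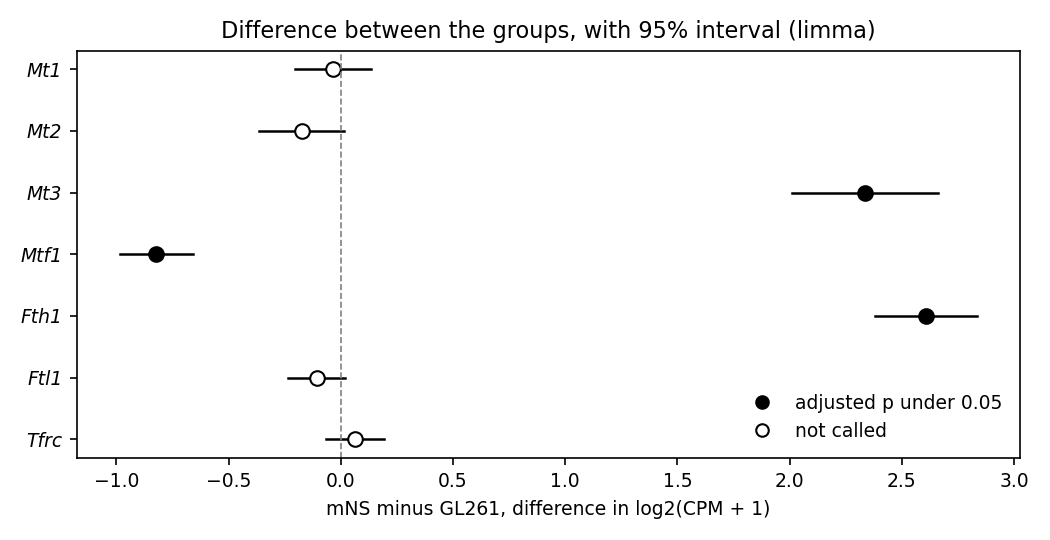
Difference between mNS and GL261 for each gene in log2(CPM + 1), with lines for the 95% interval from limma; filled points have an adjusted p under 0.05. Fth1 (2.61) and Mt3 (2.34) lie right of 0 and Mtf1 (-0.82) left of it, and the intervals of Mt1, Mt2, Ftl1 and Tfrc include 0.

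Fth1, the heavy ferritin subunit with the iron-oxidising site, had the largest difference of the 7 in log2(CPM + 1). Its levels (chromosome 19, 9980598 to 9985098, plus strand) were 834, 1029.6 and 1112 CPM in mNS, against 165.9, 159.7 and 156.7 CPM in GL261. The lowest mNS library, replicate 1, lay well above the highest GL261 library. Fth1 rose 6.17-fold, with a log2 difference of 2.61 ± 0.10 (SE; 95% interval 2.38 to 2.83; limma adjusted p = 1.25e-07). Of all tested genes, 4.23% had a larger absolute difference. The fold lay between 5.80 and 6.66 with any 1 library left out. On the ratio of means Mt3 rose more (8.82-fold). The log2 difference of Mt3 was also the larger with a pseudocount of 0.5 (2.66, against 2.61 for Fth1) or 0.1 (3.03, against 2.61). The same held for the edgeR exact test (3.13, against 2.63) and DESeq2 (3.15, against 2.63). Under the 3 rescalings the log2 difference of Mt3 was the smaller. Of 830 windows of 100 bases in the Fth1 transcript, 8 (0.964%) also occur in Gm6977. Only exact matches in annotated transcripts were searched, so reads shared with near-identical copies were not assessed.

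Macrophages and microglia are known to be rich in ferritin, and the markers of these cells that had a row were low and did not move together. Of 13 such markers, 3 had a row, and their summed level was 8.50 to 11.2 CPM in mNS, against 4.62 to 6.26 CPM in GL261. Cd68, a lysosomal protein of macrophages, averaged 8.09 ± 1.32 CPM in mNS and 2.95 ± 0.156 CPM in GL261 (SD, n = 3 each; limma adjusted p = 0.000118). Tmem119, a microglial membrane protein, averaged 1.64 ± 0.0202 CPM in mNS and 0.640 ± 0.158 CPM in GL261 (adjusted p = 0.0039, limma). The third, Csf1r, the receptor on which macrophages depend, lay below the filter on low values and went the other way, with 0.0755, 0 and 0.0708 CPM in mNS, against 2.31, 1.57 and 1.16 CPM in GL261. The others, Ptprc and Aif1 among them, had no row in the table used here. The part of these cells in the Fth1 result was not tested.

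Ftl1, the light ferritin subunit, did not follow Fth1. It (chromosome 7, 45457944 to 45459884, minus strand) had 376.6, 373.9 and 354.9 CPM in mNS, against 393.8, 412.8 and 385.3 CPM in GL261. The groups did not overlap, but they lay close: the log2 difference was -0.11 ± 0.06 (SE; 95% interval -0.24 to 0.02) and was not called (limma adjusted p = 0.119). Its sign turned under quantile normalisation. The Ftl1 values are uncertain, because 527 of 869 windows of 100 bases in its transcript (60.6%) also occur in Ftl1-ps1, Ftl2-ps, Gm15590 or Gm47428, and the gene overlaps Gm22133 and, on the other strand, Gm10252.

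The ratios of heavy to light ferritin subunit reads did not overlap between the cell forms. Within a library, Fth1 had 2.22, 2.75 and 3.13 times the reads of Ftl1 in mNS, against 0.421, 0.387 and 0.407 times in GL261. Every mNS library had more Fth1 than Ftl1 reads and every GL261 library fewer. Because 60.6% of the Ftl1 windows of 100 bases also occur in other genes, the side of 1 on which a ratio falls is uncertain. The ratio averaged 2.70 ± 0.461 in mNS and 0.405 ± 0.0173 in GL261 (SD, n = 3 each), 6.67-fold higher in mNS, and the exact two-sided permutation p was 0.1. A ratio inside a library does not depend on the scaling between libraries.

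Tfrc, the receptor that brings in transferrin iron, was high in both cell forms. It (chromosome 16, 32608920 to 32632794, plus strand) had 908, 939.8 and 941.6 CPM in mNS, against 941.8, 871 and 860 CPM in GL261. GL261 replicate 1 lay just above all mNS libraries, and the other GL261 libraries lay below them. The log2 difference was 0.06 ± 0.06 (SE; 95% interval -0.07 to 0.19; limma adjusted p = 0.362). Rescaling each column to 1 common sum gave 0.15 (adjusted p = 0.0411, limma) and quantile normalisation gave 0.18 (adjusted p = 0.0192, limma), which are calls.

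Dividing cells are known to need Tfrc, and proliferation genes were mostly lower in mNS. Of 8 such markers, 6 fell and 1 rose in mNS, and their summed level was 3699 to 4091 CPM in mNS, against 5523 to 6018 CPM in GL261. Mki67, a marker of cycling cells, averaged 859.9 ± 16.8 CPM in mNS and 1558 ± 34.6 CPM in GL261 (SD, n = 3 each; limma adjusted p = 1.75e-06). Top2a, the topoisomerase of dividing cells, averaged 1718 ± 166 CPM in mNS and 2633 ± 195 CPM in GL261 (adjusted p = 0.000296, limma). Their part in the Tfrc values was not tested.

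The ratios of Tfrc to Fth1 reads did not overlap between the cell forms either. Tfrc had 1.09, 0.913 and 0.847 times the reads of Fth1 in mNS, against 5.68, 5.45 and 5.49 times in GL261. The ratio averaged 0.949 ± 0.125 in mNS and 5.54 ± 0.119 in GL261 (SD, n = 3 each; exact two-sided permutation p = 0.1). The mNS ratio was 0.171 times that of GL261. On the ratio of means, mNS over GL261, Fth1 differed 6.17-fold, against 1.04-fold for Tfrc and 0.927-fold for Ftl1. The Fth1 to Ftl1 and Tfrc to Fth1 ratios therefore largely restate the Fth1 difference.

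**Figure D3:**
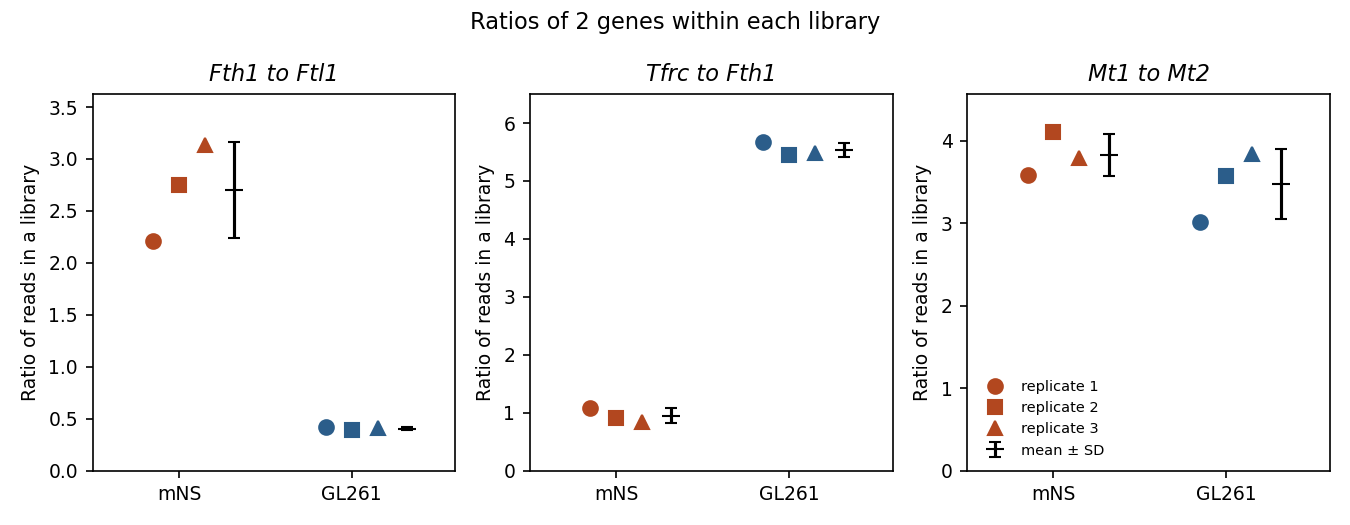
Ratio of the reads of 2 genes within each library, mNS left and GL261 right, with points for replicates 1 to 3 and a bar for the mean ± SD (n = 3). The Fth1 to Ftl1 ratio is above 1 in the mNS libraries (mean 2.70) and below 1 in the GL261 libraries (0.405), and the Tfrc to Fth1 ratio runs the other way (0.949 and 5.54), whereas the Mt1 to Mt2 ratios overlap.

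Levels of different genes were compared per kilobase of the union of annotated exons. In mNS, Fth1 (286 ± 41.1 CPM per kilobase) and Ftl1 (275 ± 8.85) came first, with ranges that overlap (SD, n = 3). Mt1 (156 ± 1.84) and Tfrc (150 ± 3.05) followed, then Mt2 (86.7 ± 5.48), Mt3 (8.95 ± 1.17) and Mtf1 (3.19 ± 0.0924). In GL261, Ftl1 came first (297 ± 10.5 CPM per kilobase), followed by Mt1 (160 ± 14.8) and Tfrc (144 ± 7.16), whose ranges overlap. Mt2 (98.1 ± 6.91) stood above Fth1 (46.4 ± 1.36) there, and Mtf1 (5.73 ± 0.0543) above Mt3 (1.01 ± 0.125). By this length Fth1 stood beside Ftl1 at the top in mNS but below Mt2 in GL261, and by all 3 lengths Mt3 lay above Mtf1 in mNS and below it in GL261.

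The order depends on the length used, above all for Fth1. Its exon union has 3469 bases, against 1494 for its longest coding transcript and 929 for its first-numbered transcript. Per kilobase of the first-numbered transcript, Fth1 had 1068 ± 153 in mNS, well above Ftl1 (381 ± 12.3), and 173 ± 5.07 in GL261, near Tfrc (182 ± 9.06) and above Mt2 (113 ± 7.95), which turns the order of Fth1 and Mt2 there. Per kilobase of the longest coding transcript, these lay close in GL261, at 108 ± 3.15 for Fth1 and 113 ± 7.95 for Mt2. Per kilobase of the first-numbered transcript, Mt1 had 355 ± 4.18 in mNS and 364 ± 33.5 in GL261, and its group difference is untouched by the choice.

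**Figure D4:**
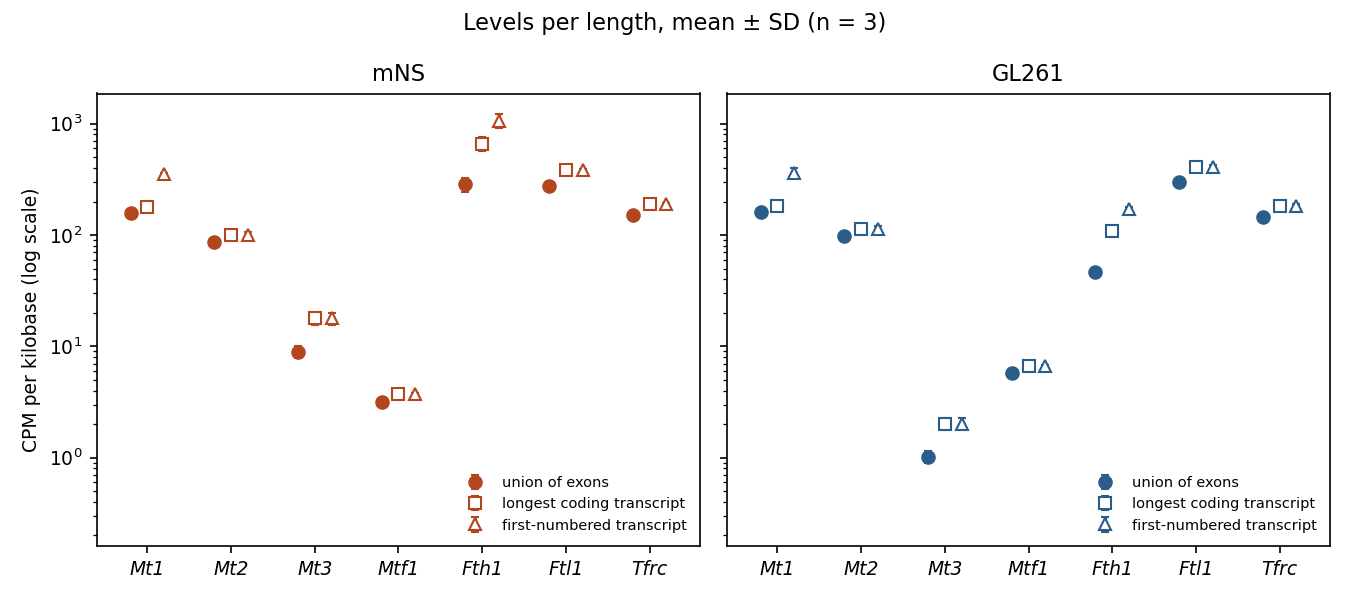
Level of each gene in CPM per kilobase on a log scale, mean ± SD (n = 3), mNS in the left panel and GL261 in the right, for 3 choices of length. By the union of exons Fth1 is at 286 in mNS and 46.4 in GL261, and Mt3 lies above Mtf1 in mNS and below it in GL261.

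Genes of zinc, copper and iron handling were read from 14 lists with 149 distinct genes. The lists include Mt1, Mt2, Mt3, Fth1, Ftl1 and Tfrc, described above, so the counts and medians below cover them too. Of the 149 genes, 125 had a row and 124 were tested. Of these 70 (56.5%) were called, 41 higher and 29 lower in mNS, against 64.3% of all genes. With every column set to 1 common sum, 48 were higher and 25 lower. Their median log2 difference was 0.06, where that of all tested genes was -0.0027. The median absolute difference was 0.33 over the lists and 0.40 over all tested genes.

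Zinc transporters moved in both directions. Of the 11 tested ZIP importers, which bring zinc into the cytosol, 7 fell and 2 rose in mNS (median log2 difference -0.45). Slc39a8, which also carries iron and manganese, fell to 0.396 ± 0.0251 CPM in mNS, against 3.30 ± 0.708 CPM in GL261 (SD, n = 3 each; limma adjusted p = 4.64e-05). Slc39a14, an importer of zinc and non-transferrin iron, had 65.0, 66.3 and 63.0 CPM in mNS, against 98.7, 144.8 and 146.6 CPM in GL261 (log2 difference -0.97). Slc39a13, a zinc transporter of the secretory pathway, fell by 0.76 on the log2 scale. Slc39a10, a plasma membrane importer, rose 2.18-fold, to 153 ± 10.9 CPM in mNS, against 70.3 ± 6.20 CPM in GL261.

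Of the 6 tested ZnT exporters, which move zinc out of the cytosol, 3 rose and 2 fell (median 0.18). Slc30a4, which fills vesicles with zinc, had 2644, 3125 and 2722 CPM in mNS, against 112, 157 and 151 CPM in GL261. That is a 20.2-fold rise. The log2 difference of 4.34 ± 0.13 (SE; limma adjusted p = 3.59e-08) was the largest in the 14 lists. Slc30a1, the plasma membrane exporter and a known MTF-1 target, went the other way, with 21.7, 13.8 and 13.2 CPM in mNS, against 37.6, 42.8 and 39.4 CPM in GL261 (log2 difference -1.28). Slc30a5 and Slc30a7, which load zinc into the secretory pathway, rose by 0.44 and 0.30 on the log2 scale, and the call of Slc30a5 was lost without mNS replicate 2 (adjusted p = 0.0531, limma).

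The 7 tested genes of the MTF-1 target list held 3 that rose, 1 that fell and 3 that were not called (median 0.06). The 3 not called included Mt1 and Mt2. Slc30a1 fell, and its promoter window holds 2 MRE cores. The genes that rose were Slc39a10, which MTF-1 is known to repress and whose 2 windows held no core, Gclc, which makes the first intermediate of glutathione (2.05-fold), and Txnrd2, the mitochondrial thioredoxin reductase (1.88-fold), whose window holds 1.

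Copper genes also moved in both directions, with 5 that rose, 3 that fell and 6 not called of 14 tested (median -0.0049). Atp7a, the copper pump of the Golgi and plasma membrane, had 32.4, 31.2 and 33.2 CPM in mNS, against 180.1, 180.4 and 166.6 CPM in GL261. GL261 thus held 5.44 times as much (log2 difference -2.41 ± 0.07 SE; limma adjusted p = 3.10e-08). Commd1, which helps to sort copper pumps, fell by 0.95 on the log2 scale. Sod1, the copper-zinc superoxide dismutase, rose 1.73-fold and Ccs, the chaperone that gives Sod1 its copper, 2.03-fold.

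Among 14 tested genes of iron uptake, 5 rose, 2 fell and 7, Tfrc among them, were not called (median 0.06). Trf, which encodes transferrin itself, had 503, 679 and 762 CPM in mNS, against 184, 198 and 246 CPM in GL261, a 3.09-fold rise (limma adjusted p = 3.34e-05). Choroid plexus and liver cells also make transferrin, and none of their markers Ttr, Alb and Otx2 had a row. Lcn2, a secreted protein that binds iron-loaded siderophores, had 3.397, 11.7 and 15.5 CPM in mNS, against 0.0745, 0.299 and 0.289 CPM in GL261. The GL261 values are 1, 4 and 4 reads, so the 46.2-fold ratio of means is imprecise (log2 difference 2.999 ± 0.43 SE; limma adjusted p = 0.000316). Cubn, an endocytic receptor that takes up transferrin in the kidney, rose 1.98-fold. The 2 that fell were Slc39a8 and Slc39a14.

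The other storage, sensing and export genes moved less than Fth1. Of 6 tested storage genes, Fth1 included, 2 rose (Fth1 and Herc2), 1 fell and 3, Ftl1 among them, were not called (median 0.17). Herc2, part of the machinery that degrades the ferritin receptor Ncoa4, rose 1.46-fold, and Pcbp1, a chaperone that hands iron to ferritin, fell by 0.35 on the log2 scale. Of 10 tested sensing genes, 4 rose and 1 fell (median 0.30), and the iron regulatory proteins moved in opposite directions. Aco1 (IRP1) had 203.8, 200.6 and 203.8 CPM in mNS, against 135.1, 115.3 and 118.3 CPM in GL261, a 1.65-fold rise (limma adjusted p = 3.58e-05). Ireb2 (IRP2) had 49.7, 48.5 and 46.2 CPM in mNS, against 75.9, 65.2 and 54.6 CPM in GL261 (log2 difference -0.42; limma adjusted p = 0.0111). Cul1, a scaffold of the ubiquitin ligase that degrades IRP2, rose 1.42-fold. Nupr1, a stress-induced chromatin protein, was called (log2 difference 0.95), but its groups overlap and the call was lost without GL261 replicate 2 or 3 or mNS replicate 1 or 2 (adjusted p between 0.0530 and 0.101, limma). Of 2 tested export genes, App, which helps to hold ferroportin at the membrane, fell by 0.47 on the log2 scale and Cp, the ferroxidase ceruloplasmin, was not called.

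Of 6 tested genes known for an IRE outside ferritin and Tfrc, 4 rose and 1 fell (median 0.39). Cdc14a, a phosphatase of the cell cycle, rose 4.33-fold, to 87.8 ± 7.83 CPM in mNS, against 20.3 ± 4.93 CPM in GL261. Pfn2, an actin-binding profilin, rose 3.76-fold, to 156 ± 6.73 CPM in mNS, against 41.6 ± 3.09 CPM in GL261. Slc11a2, the transporter DMT1 that carries iron out of endosomes, rose 1.30-fold (limma adjusted p = 0.0121), a call lost without mNS replicate 2 (adjusted p = 0.0504, limma). The transcripts of Cdc14a, Pfn2 and Slc11a2 held no match to the strict IRE pattern above.

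Heme genes were the largest list, with 8 that rose, 3 that fell and 8 not called of 19 tested (median 0.10). Hmox1, the heme oxygenase that frees iron from heme, had 52.8, 61.5 and 68.0 CPM in mNS, against 23.3, 18.7 and 17.99 CPM in GL261, a 3.04-fold rise (limma adjusted p = 1.07e-05). Slc48a1, which carries heme out of lysosomes, rose 2.81-fold and Pgrmc1, a heme-binding membrane protein, 2.83-fold. Mfsd7c, the transporter also named FLVCR2, had 3 reads over the mNS libraries and 90 over the GL261 libraries. That is 29.8 times as much in GL261 with an exact 95% binomial interval of 9.86 to 147, which covers counting error only. Without mNS replicate 1, which held 2 of the 3 reads, the mNS to GL261 ratio of means moved to 0.0159, where all libraries gave 0.0333.

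Iron-sulfur assembly genes moved in both directions. Of 18 tested in mitochondria, 3 rose, 5 fell and 10 were not called (median -0.12), and of 10 tested in the cytosol, 1 rose, 4 fell and 5 were not called (median -0.05). Nubpl, an assembly factor for respiratory complex I, fell by 0.78 on the log2 scale. Abcb8, a mitochondrial transporter, rose 1.44-fold, and Lyrm4, the partner of the cysteine desulfurase, 1.41-fold, a call lost without GL261 replicate 3 or mNS replicate 3 (adjusted p = 0.0558 and 0.0523, limma). In the cytosol Mms19, which hands clusters to DNA repair enzymes, rose 1.69-fold, and Ciapin1, Fam96a and Ndor1 fell by 0.39, 0.37 and 0.33 on the log2 scale.

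Of 10 tested ferroptosis and labile iron genes, 3 rose, 1 fell and 6 were not called (median 0.17). Besides Fth1, Slc7a11, the cystine importer, had 129, 139 and 145 CPM in mNS, against 33.3, 7.998 and 7.73 CPM in GL261. The 8.44-fold ratio of means rests on GL261 replicate 1 and was 17.5 without it (log2 difference 3.32 ± 0.45 SE; limma adjusted p = 0.000254). Acsl4, which makes the lipids that oxidise in ferroptosis, rose 1.93-fold. Gpx4, the selenoenzyme that repairs such lipids, fell by 1.09 on the log2 scale, with 9.65 ± 0.620 CPM in mNS and 21.6 ± 0.477 CPM in GL261 (SD, n = 3 each).

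**Figure D5:**
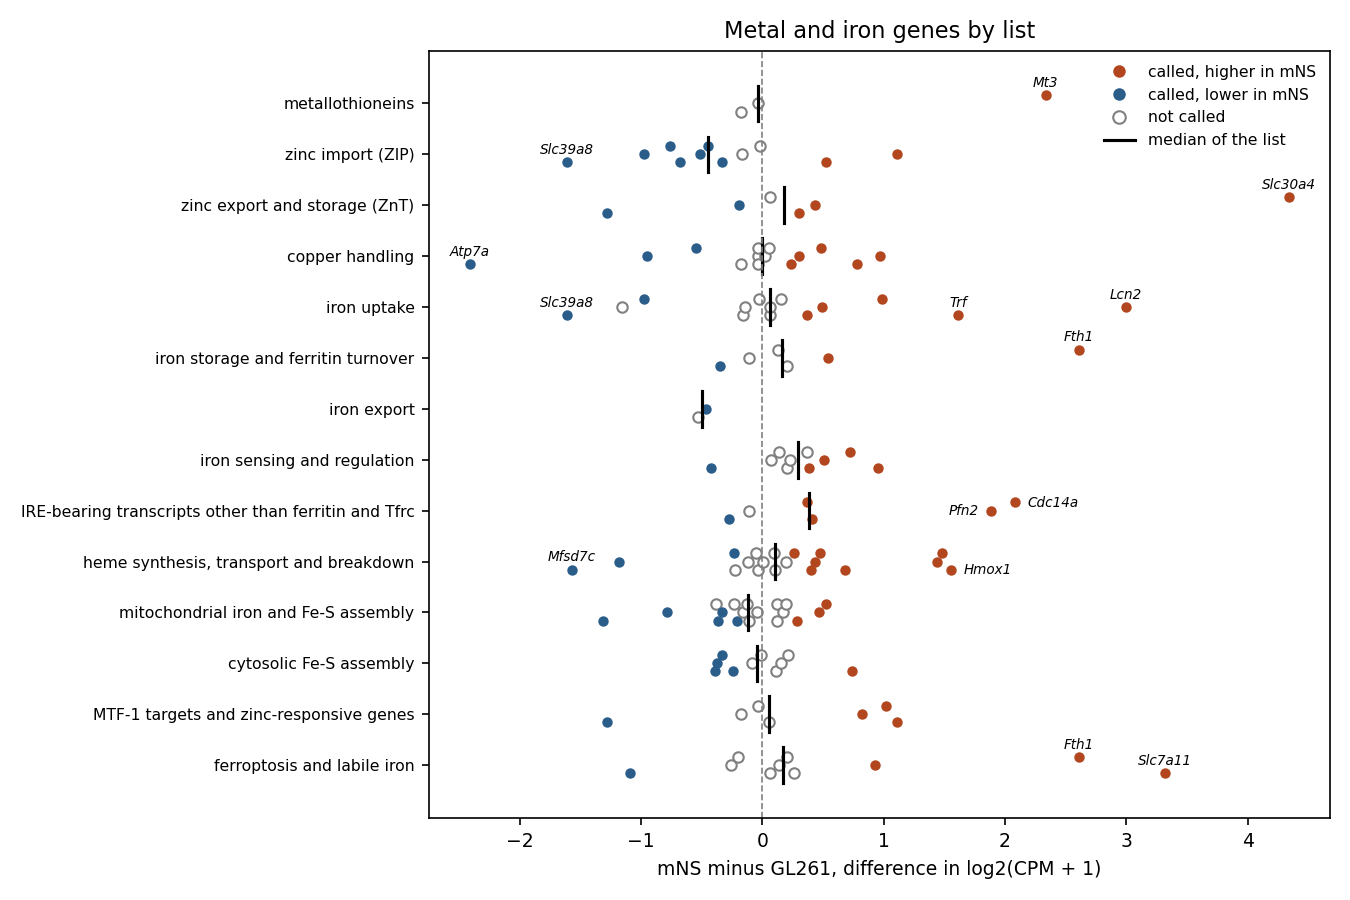
Difference between mNS and GL261 in log2(CPM + 1) for each tested gene of the 14 metal and iron lists, 1 row per list, with filled points for called genes and a black line at the list's median. Slc30a4 lies farthest right (4.34) and Atp7a farthest left (-2.41), and the list medians run from -0.50 for iron export to 0.39 for the IRE-bearing transcripts.

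The genes with profiles most like those of the 7 were found by the root mean square difference of log2(CPM + 1) over the 6 libraries, each profile centred on its own mean. Nearest to Mt1 were Hif1a (0.0145), Asb1 (0.0216) and Rsad1 (0.0270). Nearest to Mt2 were Zmym4 (0.0364) and Cdkn2aip (0.0374), and nearest to Ftl1 were Blmh (0.0107), Zfp961 (0.0181) and Htatsf1 (0.0204). All of these have small differences between the groups, as do the genes nearest to Tfrc, which were Dkc1 (0.0176), Xpo5 (0.0181) and Cyb5b (0.0209). Nearest to Mtf1 were Eftud2 (0.0272), Orc2 (0.0273) and Ndufs1 (0.0289).

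The genes that rose had looser neighbours. Nearest to Fth1 were Gsx2 (0.0832), Angel1 (0.0836) and Jph4 (0.0897), where Gsx2, a homeobox factor of the developing forebrain, had 5.75 ± 1.06 CPM in mNS and no read in GL261. Nearest to Mt3 were Il17f (0.0945), Hid1 (0.0993) and Crmp1 (0.101). Fth1 and Mt3 were each other's nearest among the 7, at 0.182.

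The labels of the cells were set beside neural markers, all 10 of which had a row. Of these 4 were higher and 5 lower in mNS. Olig2, a factor of oligodendrocyte progenitors, averaged 437 ± 22.8 CPM in mNS and 8.54 ± 2.97 CPM in GL261, and S100b, an astrocyte protein, 52.1 ± 9.55 CPM in mNS and 225 ± 17.4 CPM in GL261 (SD, n = 3 each). Besides Olig2, the markers higher in mNS were Fabp7 (mean 89.8 CPM in mNS, 3.24 CPM in GL261), Olig1 (243 and 10.5 CPM) and Pdgfra (267 and 111 CPM). Gfap was lower in mNS (0.101 and 3.45 CPM). Several progenitor markers, named here after their values were seen, were not higher in mNS. Nes, the intermediate filament nestin, averaged 955 ± 236 CPM in mNS and 1518 ± 175 CPM in GL261, and Vim, vimentin, 3659 ± 117 CPM in mNS and 7257 ± 617 CPM in GL261. Cspg4, the NG2 proteoglycan of oligodendrocyte progenitors, averaged 85.6 ± 11.5 CPM in mNS and 224 ± 34.1 CPM in GL261. Sox2, a neural stem cell factor, was not called, at 184 ± 15.1 CPM in mNS and 181 ± 41.0 CPM in GL261 (limma adjusted p = 0.778). Of 8 erythroid markers only Epor had a row (3.22 ± 0.301 CPM in mNS and 2.39 ± 0.614 CPM in GL261), and none of 5 endothelial markers had one.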

How the data were processed

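Per the labels' protocols, the 3 mNS and 3 GL261 libraries are stranded and single-end, from total RNA with ribosomal RNA removed. The mouse build mm10 and the tools edgeR 3.4.2, HTSeq 0.5.3p9 and TopHat2 (version 2) come from the submitters' processing notes, without roles. The authors deposited a normalised signal for each gene in each library: CPM scaled by TMM, per the file headers and the series text. How low genes were left out, and whether reads were counted by strand, are not given in the sources used here.

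Low values were whole multiples of 1 step per column, and 100% of values were whole numbers of reads to within 0.001 reads. Depths are sums of these reads. The main test was limma 3.58.1 (R 4.3.3; two-sided, lmFit and eBayes with trend), applied to log2(CPM + 1), a scale that understates the change of low genes, with Benjamini-Hochberg adjustment over 12006 genes that averaged 1 CPM or more. Folds are ratios of group means of CPM. The alternatives were pseudocounts of 0.5 and 0.1, no filter or a mean of at least 5 CPM, 3 rescalings, eBayes without trend, edgeR 4.0.16 (quasi-likelihood and exact tests), DESeq2 1.42.0 and leaving out each library. The limma and motif steps were tested on simulated data.

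Positions, exon lengths and IRE searches used GENCODE M21 (GRCm38, the assembly of mm10), and promoters came from RefSeq. All 7 genes matched by symbol. Tables, ratios and plots were made in Python 3.11.15 (scipy 1.17.1, numpy 2.4.6, pandas 2.3.3, matplotlib 3.10.9). The 7 genes and all lists were chosen with earlier results of these data known. Within the lists, up to 4 called genes with the largest absolute log2 difference are named, as are the 3 genes nearest in profile to each of the 7, leaving out numbered gene models, and leading markers; 3 genes that this rule names are not reported here. No sample was left out of the main test.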

Additional observations from a re-analysis of the deposited data

How the results depend on the processing

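Over 17 alternatives, of which 6 left out 1 library each, Mt3, Fth1 and Mtf1 were called in all 17 with unchanged direction (log2 differences of 2.15 to 3.15, 2.52 to 2.76 and -0.85 to -0.73). Mt1, Mt2 and Ftl1 were called in none. Mt1 changed sign when the columns were rescaled to a common sum (0.0576) and under quantile normalisation (0.0775), and lay between -0.107 and 0.0243 with 1 library left out. Ftl1 changed sign under quantile normalisation (0.0498). Tfrc became called with a common sum (0.15) and under quantile normalisation (0.18). The common sum moved the median of all genes to 0.08, where the deposited values gave -0.0027, and the causes of the other changes were not tested. With 1 library left out, 6603 to 7781 of all genes and 58 to 69 of the list genes were called. The edgeR quasi-likelihood test called 7651 genes, its exact test 7495 and DESeq2 7353. Levels per kilobase of all 7 genes moved by more than 1 SD under both other lengths. The first-numbered transcript was chosen after seeing the data, as were the ratios without each library. The ratios within a library and their permutation tests were not planned either. No paired analysis was possible because the labels give passages and no replicate numbers shared between the groups. Mt3 in GL261 rests on 44 reads, which limits the precision of its fold.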
